A study of Mus musculus with 8 samples.

Results

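The 100 brightest transcript probes of the normal mouse salivary gland were followed into tumor-adjacent gland and tumor. The members were chosen by their signal on the arrays of the 2 normal glands: among the 58141 probes that carry the array maker's own identifier, the 100 with the highest mean scaled log2 signal over those 2 arrays were taken, out of 60915 non-control probes in all. Scaled log2 signal is the log2 spot intensity minus the 75th percentile of the array, so a value of 0 is the brightness of the 75th percentile. The tissues came from a model of mucoepidermoid carcinoma (MEC) in which a CRTC1-MAML2 fusion transgene, placed behind a CAG promoter and a floxed stop, was switched on by MMTV-Cre, a line that expresses Cre in some of the ductal cells of the salivary gland. Normal glands (N1, N2) came from mCre-CM(–) littermates, which lack the fusion transgene. mCre-CM(+) mice, which carry it, gave the glands adjacent to a tumor (NAT1, NAT2) and the tumors themselves (T1 to T4), with NAT1 and NAT2 taken beside T1 and T2, and T3 and T4 from other mice. Ages of the animals are not given in the sources used here. Groups were taken from the sample titles and tissue labels, and for NAT2 and T2 the source descriptions conflict with these titles.

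Salivary glands are exocrine organs in which acinar cells make most of the secreted protein and ducts modify and add to it. In such secretory tissue, mRNAs of a limited number of secreted proteins take up a large part of all mRNA. MEC is a malignant salivary tumor of mucous, intermediate, and epidermoid cells, and the CRTC1-MAML2 fusion joins the CREB-binding part of a coactivator to the activating part of a Notch coactivator. No table used here links the members to gene names or sequences. They are therefore given by probe number, their roles are not given, and the tissue label could not be checked against acinar, duct, or other cell type markers. Brightness also depends on how well each probe binds its target, so an order of probes by signal is not an order of transcripts by abundance. Several probes may read 1 transcript, or transcripts of closely related genes.

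All 8 arrays lay on 1 slide and came from 1 scan. The unscaled 75th percentile (log2) was 7.13 on N1, 6.67 on N2, 7.48 on NAT1, 7.56 on NAT2, and from 7.73 to 8.42 for the tumors. No spot was saturated, and the brightest spot reached between 36.2% and 47.5% of the saturation value. Of the members, 99 were well above background on all 8 arrays, and the remaining one, ASMM10P055854, was so on all but T4. Precision is limited by the small number of arrays, 2, 2, and 4 per group.

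The 100 members carried 22.4% and 27.8% of the summed signal of N1 and N2, and 17.3% and 20.3% of that of NAT1 and NAT2. On the tumor arrays they carried 7.43%, 7.84%, 8.59%, and 8.01% (T1 to T4). The share on every T array lay below that on both NAT arrays, and the group means were 25.1% ± 3.80 (SD, n = 2) in N, 18.8% ± 2.09 (SD, n = 2) in NAT, and 7.97% ± 0.481 (SD, n = 4) in T. The mean share in T minus that in NAT was -10.8 percentage points. A share within an array does not depend on the scaling between arrays. These are shares of signal, and in tissue samples fewer cells of a type and less RNA per cell cannot be told apart.

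In 41 of the members the mean was at least 2-fold lower in T than in NAT, and these are called the falling members. This split uses the T and NAT values themselves, so the values of each set are a description. They made up 11.7% and 15.4% of the signal of N1 and N2 and 7.72% and 10.1% of that of NAT1 and NAT2. On the tumor arrays they made up 0.148%, 1.24%, 1.84%, and 0.287% (T1 to T4). The other 59 members went from 9.61% and 10.2% on the NAT arrays to 7.28%, 6.60%, 6.75%, and 7.73% on the T arrays.

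**Figure D1:**
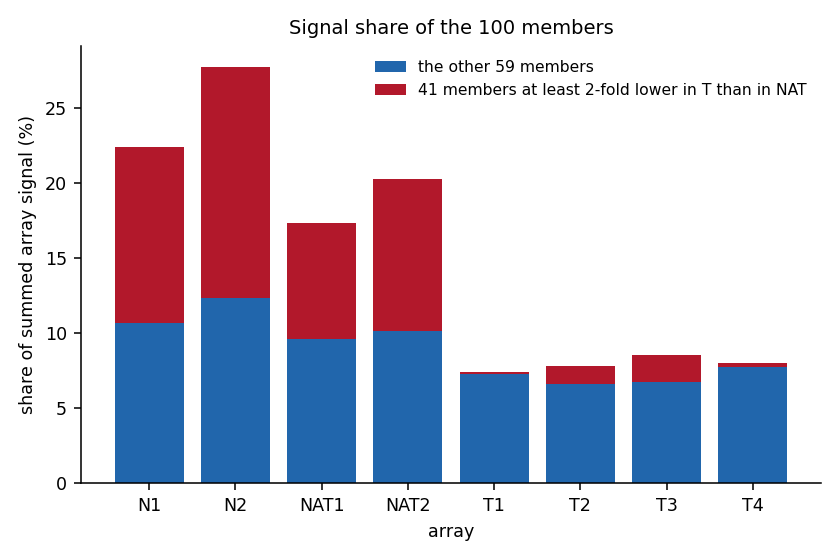
Stacked bars give the share of summed non-control signal, in percent, on each of the 8 arrays, for the 41 falling members (red) and the other 59 (blue). The red part shrinks from 7.72% and 10.1% in NAT to at most 1.84% in T, and the blue part stays between 6.60% and 12.4%.

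Ranks within an array gave the same picture without any scaling. Among the brightest 100 probes of each array were 93 members on N1, 93 on N2, 70 on NAT1, and 92 on NAT2, against 38, 34, 44, and 35 on T1 to T4. By the mean of the T arrays, 35 members ranked within the brightest 100. The members among the brightest 100 of all 4 T arrays numbered 30, and 49 were among the brightest 100 of none. The median rank of the falling members was 29 on NAT1 and 26 on NAT2, and 11244, 918, 1345, and 4901 on T1 to T4. For the other 59 members it was 62 on NAT1, 66 on NAT2, and from 72 to 80 in the tumors. Of the 65 probes that took the places of members among the brightest 100 of T, 44 had ranked between 101 and 200 in N, and 3 had ranked beyond 1000.

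**Figure D2:**
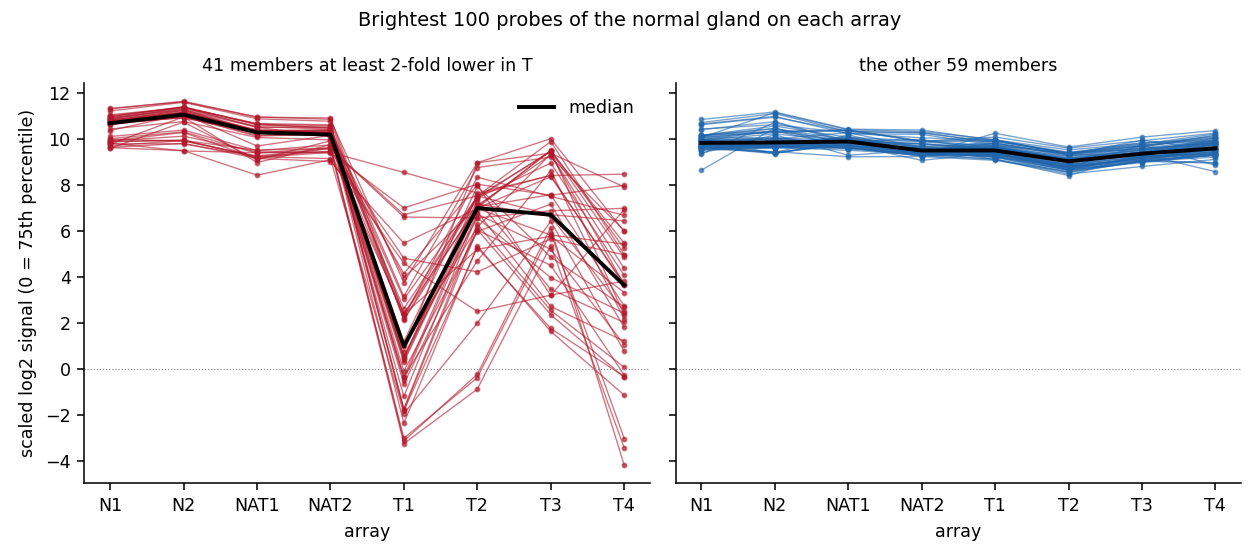
Each thin line is 1 member, plotted as scaled log2 signal on the 8 arrays, with the 41 falling members on the left, the other 59 on the right, and the median of each set in black. The medians of the falling members are 10.29 and 10.20 on the NAT arrays and 0.97, 7.0, 6.71, and 3.64 on T1 to T4, and those of the others lie between 9.03 and 9.90 on all 8 arrays.

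Change was tested between T and NAT, since neither of these groups chose the members. With limma on all 47175 probes well above background on at least 2 arrays, and a cutoff of 2-fold at an FDR of 0.05, 29 of the 100 members were lower in T and 0 were higher. Over all tested probes 15.9% were called lower and 20.5% higher. Of the probes ranked 101 to 200 in N, 0 were called higher, and of those ranked 201 to 1000, 3.38%. A count of 0 higher was thus not particular to the members. At an unadjusted p under 0.05 in limma 0 members were higher as well, and the methods' t-test called 0 higher. The highest difference was 0.46 on the log2 scale. The median difference over the members was -0.57, against 0.24 over all tested probes. Both moved with the scaling, to -0.054 and 0.75 without it. With the mean of 15 RefSeq-named probes subtracted they were -1.70 and -0.90. The calls depended on the NAT arrays: 16 members were called lower without NAT1 and 10 without NAT2, beside 15.6% and 8.15% of all tested probes. Leaving out both NAT2 and T2, the arrays with conflicting descriptions, also gave 16, beside 10.5% of all tested probes. The methods' t-test called 21 before and 6 after Benjamini-Hochberg adjustment, beside 15.3% and 9.92% of all tested probes.

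The 2-fold cutoff on the difference itself defines the falling members. They lay between -9.98, a fitted value of ASMM10P055854 that includes a T4 spot not well above background, and -1.04 (median -5.27) and the other 59 between -0.72 and 0.46 (median -0.37), and the change nearest the cutoff, that of ASMM10P037321, was -0.91 with normexp. A 2-fold lower mean in T was seen in 41 of 100 members and in 19.6% of all tested probes. All 41 had their 4 T arrays below both NAT arrays, as did 68 of the 100 members and 23.9% of all tested probes. Before scaling, 40 of the 41, 44 of the 100 members, and 14.1% of all tested probes did. The 4 T arrays lay above both NAT arrays in 20 members and 48.7% of all tested probes before scaling, and in 0 members after it. A mean at least 16-fold lower was seen in 30 members, of which limma called 23, and in 1.96% of all tested probes. The 12 falling members that were not called had FDRs from 0.0524 to 0.221. The median SD among the T arrays was 3.13 over the falling members, 0.30 over the other 59, and 0.41 over all tested probes.

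The brightest members fell most often. Of the 25 brightest in N, 22 were at least 2-fold lower in T than in NAT, as were 10 of ranks 26 to 50, 6 of ranks 51 to 75, and 3 of ranks 76 to 100. Beyond the members, 12 of the 100 probes of ranks 101 to 200 were at least 2-fold lower and all 12 were called, and 3 were at least 16-fold lower. Among ranks 201 to 1000, 36.4% were at least 2-fold lower, 32.4% were called lower, 3.38% were called higher, and 9.63% were at least 16-fold lower, against 1.96% over all tested probes. The share of probes lower in T thus did not follow the N level in 1 direction over these ranks, and no test was made between them.

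**Figure D3:**
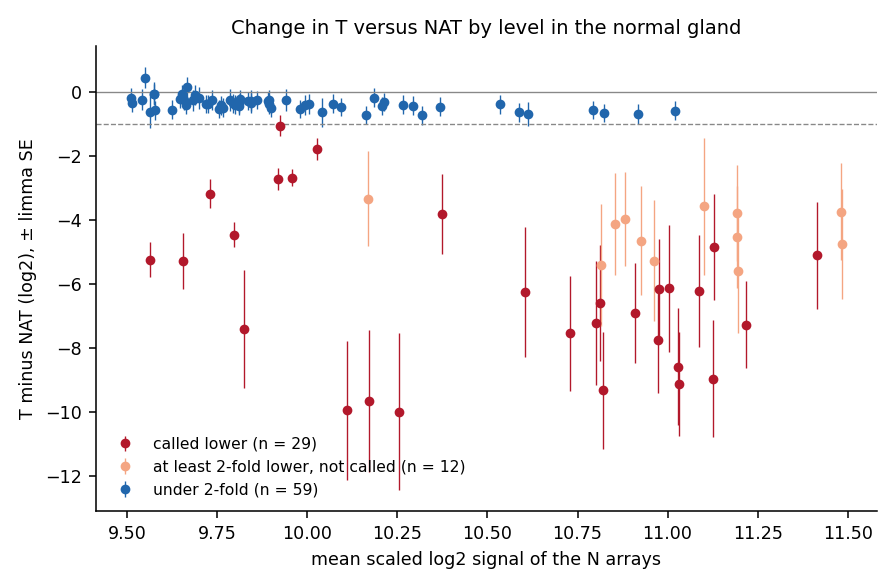
Each point is 1 member, with its mean scaled log2 signal in N on the x axis and the T minus NAT difference (log2) with its limma standard error on the y axis. The 59 blue points lie between -0.72 and 0.46, and the 41 red and orange points reach from -1.04 to -9.98 (fitted values), with the dashed line at 2-fold.

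Every one of the 10 brightest members was a falling member, and limma called 4 of them. The brightest, ASMM10P006907, had scaled log2 signals of 11.34 and 11.63 on N1 and N2, 10.96 and 10.92 on NAT1 and NAT2, and 2.37, 7.53, 9.89, and 4.98 on T1 to T4. It ranked 1 or 2 on each N and NAT array, and 7439, 647, 8, and 3030 on T1 to T4. The tumors thus differed 184-fold among themselves for this probe, and the difference from NAT, -4.75 (SE 1.72), had an FDR of 0.0596 and was not called. Under a fixed replicate block the difference was -5.99 (FDR 0.0286) and called, and under a random one it was -4.71 and not called. This block groups N1 with NAT1 and T1, and N2 with NAT2 and T2, though the N glands came from other mice. In the fixed block T3 and T4 stand alone, so its difference rests on T1 and T2 against NAT1 and NAT2. ASMM10P013210, the next brightest, was at 3.76, 8.97, 10.02, and 5.98 on T1 to T4 against 10.96 and 10.86 on NAT, and was not called either (-3.73, SE 1.52, FDR 0.0854). ASMM10P035923, at 2.13, 7.11, 9.32, and 4.37 on T1 to T4 and 10.88 and 10.78 on NAT, was called (-5.10, SE 1.67, FDR 0.0425), a call lost in 13 of 22 alternatives. T3 was nearest to NAT and T1 farthest for all 3 of these probes. ASMM10P007073 (-5.59), ASMM10P000407 (-4.53), and ASMM10P054476 (-4.84) had the same order of tumors. Their FDRs were 0.0524, 0.0543, and 0.0488, on both sides of the cutoff, the call of ASMM10P054476 was lost in 15 of 22 alternatives, and the fixed replicate block called all 3 where the random block called none of them. ASMM10P034369 differed from them in that 1 tumor stood far below the rest, with 0.71 on T1 against 8.97, 9.39, and 7.91 on T2 to T4 and 10.51 and 10.11 on NAT.

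The tumors differed in which of them kept most signal. T1 held the lowest of the 4 tumor values for 30 of the 41 falling members, T4 for 6, T2 for 4, and T3 for 1. The highest value was on T3 for 22, on T2 for 16, on T1 for 2, and on T4 for 1. Against the NAT mean, the median falling member kept 0.154% of its signal on T1, 9.40% on T2, 13.9% on T3, and 1.00% on T4. Within each tumor the share kept differed from probe to probe, from 0.0143% to 58.9% on T1, from 0.0813% to 44.3% on T2, from 0.261% to 59.4% on T3, and up to 55.9% on T4. The lowest value on T4, 0.00691% for ASMM10P055854, comes from a spot not well above background and is a bound only.

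**Figure D4:**
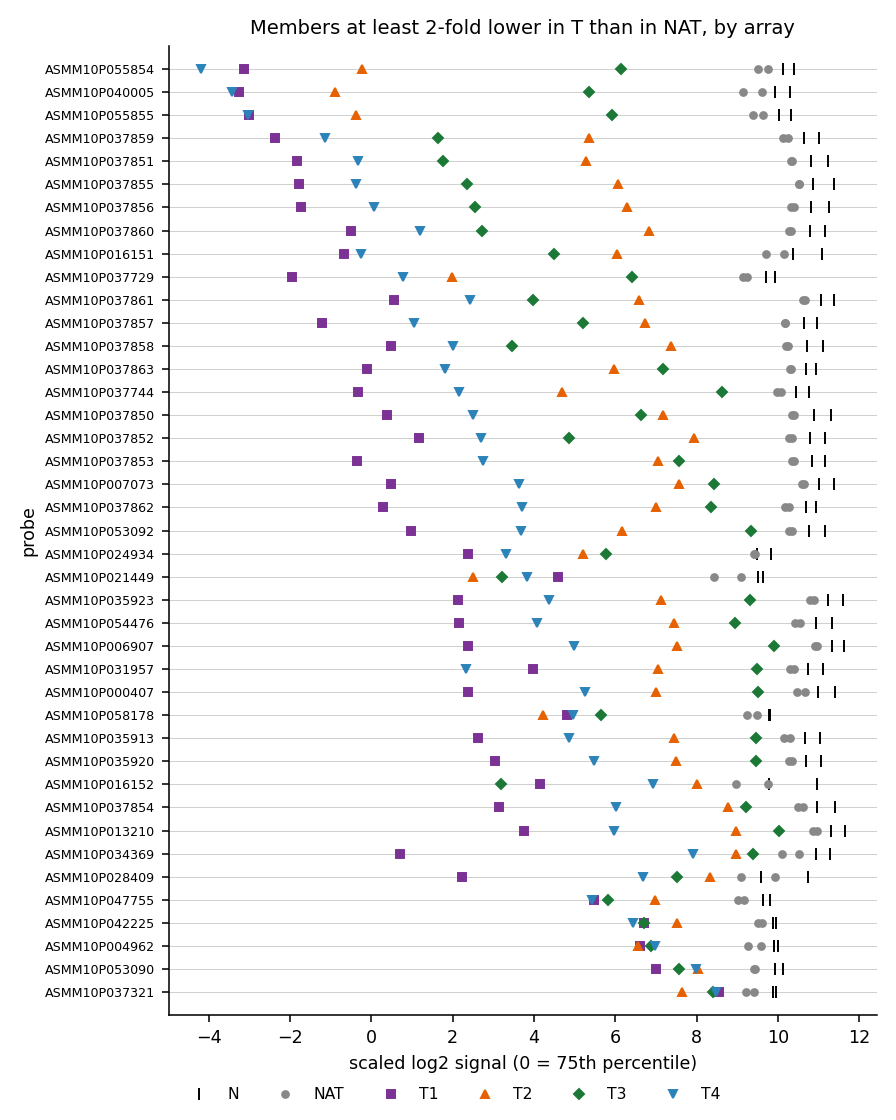
Each row is 1 of the 41 falling members, with the scaled log2 signal of N (black ticks), NAT (gray), and the 4 tumors (colored symbols) on the x axis, ordered by the T minus NAT difference. The N and NAT arrays lie between 8.43 and 11.65 throughout, and the tumors spread from -4.20 to 10.02, with a narrow spread in the lowest 5 rows.

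In 3 probes with falls among the largest, signal was kept mainly in T3. ASMM10P055854 had scaled log2 signals of 10.12 and 10.40 on N, 9.50 and 9.75 on NAT, and -3.14, -0.24, 6.14, and -4.20 on T1 to T4. In intensity units it went from 128978 and 162426 on NAT to 27.7, 291, 18724, and 11.6 on T1 to T4, the last of which was not well above background and is a bound only. Its fitted difference from NAT, -9.98 (SE 2.45, FDR 0.0146 from limma), includes that T4 value and is therefore no exact size, and with normexp it was -8.71. ASMM10P040005 was at 9.15 and 9.61 on NAT and -3.26, -0.89, 5.36, and -3.44 on T1 to T4 (-9.93, SE 2.17, FDR 0.00917). ASMM10P055855, numbered next to the first of them, was at 9.38 and 9.64 on NAT and -3.02, -0.39, 5.91, and -3.04 on T1 to T4 (-9.64, SE 2.23, FDR 0.0115). The order of the largest falls depended on the setting: ASMM10P037859, described with the run of probes that follows, was at -8.72 with normexp, against -8.71, -8.78, and -8.60 for these 3, and at -10.81 without T2, against -10.02, -9.82, and -9.56. For all 3, T3 stood above the other tumors and still below both NAT arrays. ASMM10P037744 had a related order, with -0.34, 4.70, 8.63, and 2.15 on T1 to T4 against 10.07 and 9.97 on NAT (-6.24, SE 2.02, FDR 0.0414), a call lost in 11 of 22 alternatives.

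A run of 14 probes with consecutive numbers, ASMM10P037850 to ASMM10P037863, lay entirely among the members. Their ranks in N were between 4 and 28. On the N and NAT arrays they lay between 10.64 and 11.06 on N1, 10.93 and 11.41 on N2, 10.13 and 10.68 on NAT1, and 10.17 and 10.62 on NAT2. On the tumor arrays the same probes lay between -2.37 and 3.15 on T1, 5.28 and 8.76 on T2, 1.63 and 9.21 on T3, and -1.15 and 6.02 on T4. All 14 were lowest on T1, 10 were highest on T2, and 4 were highest on T3. Unscaled, they were among the brightest spots of the N and NAT arrays. Differences from NAT ranged from -9.32 to -3.78, and limma called 12 of the 14, where 15.9% of all tested probes were called lower.

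Within this run ASMM10P037859 fell most, from 10.13 and 10.24 on NAT to -2.37, 5.35, 1.63, and -1.15 on T1 to T4 (-9.32, SE 1.81, FDR 0.00566), followed by ASMM10P037851 (-9.12, SE 1.64, FDR 0.00402) and ASMM10P037855 (-8.95, SE 1.83, FDR 0.00691). ASMM10P037861, the brightest of the run in N, was at 0.56, 6.58, 3.97, and 2.42 on T1 to T4 (-7.27, SE 1.36, FDR 0.00478). ASMM10P037854 fell least, with 3.15, 8.76, 9.21, and 6.02, and was not called (-3.78, SE 1.49, FDR 0.0787). The adjoining numbers on both sides were dim, with ASMM10P037849 between -6.82 and -4.20 and ASMM10P037864 between -2.92 and -1.91 on the 8 arrays. Over the whole array, probes of neighboring numbers were weakly alike, with a correlation of 0.0918 between their T minus NAT differences over 36334 pairs. Which transcripts the run reads, and whether its probes share a target, is not known here.

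**Figure D5:**
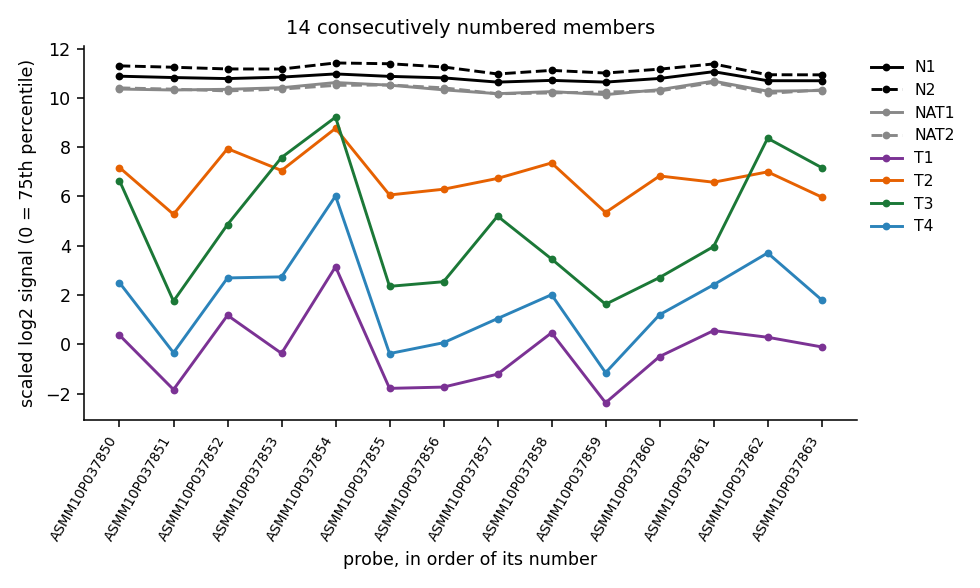
The scaled log2 signal of the 14 consecutively numbered probes is shown on the y axis for each of the 8 arrays, with the probes in order of number on the x axis. The N and NAT lines are flat between 10.13 and 11.41, and the tumor lines lie between -2.37 and 9.21.

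Among the other members, 5 pairs had consecutive numbers, and 2 of these pairs fell. ASMM10P055854 and ASMM10P055855 fell as given above, the first with only a bound on T4. ASMM10P016151 went from 9.70 and 10.16 on NAT to -0.67, 6.04, 4.50, and -0.27 on T1 to T4 (-7.53). ASMM10P016152 went from 8.98 and 9.76 on NAT to 4.15, 8.01, 3.20, and 6.93 on T1 to T4 (-3.80). T4 was thus close to the lowest tumor for the first and close to the highest for the second, and limma called both. The pairs from ASMM10P022773, ASMM10P043567, and ASMM10P055830 were not falling members.

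In 7 of the falling members the SD among the T arrays was below 1. The range among tumors was between 1.34-fold and 4.29-fold for these 7. ASMM10P004962 was at 9.27 and 9.59 on NAT and 6.61, 6.57, 6.88, and 6.99 on T1 to T4 (-2.67, SE 0.27, FDR 0.000375), a 6.37-fold fall. ASMM10P042225 was at 9.52 and 9.60 on NAT and 6.71, 7.53, 6.71, and 6.44 on T (-2.71, SE 0.35, FDR 0.000951). ASMM10P047755 was at 9.16 and 9.03 on NAT and 5.47, 6.98, 5.83, and 5.43 on T (-3.17, SE 0.45, FDR 0.00152). All 4 tumors lay well below both NAT arrays for each of these 3 probes.

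The smallest called falls were those of ASMM10P053090, at 9.45 and 9.40 on NAT and 7.0, 8.04, 7.56, and 7.99 on T (-1.78, SE 0.35, FDR 0.00599), and ASMM10P037321, at 9.21 and 9.42 on NAT and 8.55, 7.65, 8.41, and 8.47 on T (-1.04, SE 0.33, FDR 0.0375). The latter call was lost in 12 of 22 alternatives, with the fixed replicate block (FDR 0.108), with normexp (-0.91), and without any 1 of the N and NAT arrays among them, and was kept with the random block. The others of the 7 were named after their values were seen. ASMM10P021449 was at 8.43 and 9.10 on NAT and 4.59, 2.49, 3.20, and 3.82 on T1 to T4 (-5.24, SE 0.55, FDR 0.000412), with T1 the highest tumor and T2 the lowest. ASMM10P058178 was at 9.25 and 9.48 on NAT and 4.81, 4.22, 5.66, and 4.96 on T1 to T4 (-4.45, SE 0.40, FDR 0.000232). Falls of over 20-fold thus occurred both with wide and with narrow spread among tumors.

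The other 59 members stayed within 2-fold between NAT and T. Their SD among the T arrays was between 0.20 and 0.47, and the highest tumor was at most 1.99-fold above the lowest. Of these, 57 were lower in T than in NAT and 2 higher, and none was called. That direction flipped with the scaling: without scaling between arrays 46 of the 59 were higher in T, with a median of 0.15, and with the mean of the 15 RefSeq-named probes subtracted all 59 were lower, with a median of -1.50, and 57 were called, where 39.1% of all tested probes were called lower. Quantile normalization gave 39 lower and 20 higher. The first 2 of these scalings moved the difference of every tested probe one way, by 0.39 to 0.62 (median 0.52) and by -1.47 to -0.80 (median -1.13), and the median of all tested probes from 0.24 to 0.75 and -0.90. Counts of members on either side of 0 moved with that shift. The falling members kept a negative difference under each of the scalings run, with medians between -6.41 and -4.76. Their highest difference was -1.04 by their choice, so the shift of at most 0.62 without scaling could not change a sign.

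The members with the smallest differences were ASMM10P017377 (-0.04, SE 0.35), ASMM10P036399 (-0.06, SE 0.29), ASMM10P048192 (-0.06, SE 0.32), ASMM10P034572 (-0.08, SE 0.31), and ASMM10P050133 (0.16, SE 0.32). ASMM10P036399 was at 9.65 on both N arrays, 9.96 and 9.43 on NAT, and 9.73, 9.39, 9.58, and 9.85 on T1 to T4, with the groups overlapping. The NAT arrays overlapped the T arrays for the other 4 as well. ASMM10P037994 had the highest difference of all members, and was named after its values were seen. It was at 9.72 and 9.38 on N, 9.94 and 9.33 on NAT, and 10.26, 9.65, 10.09, and 10.37 on T1 to T4, and it ranked 1 on all 4 T arrays. Its difference of 0.46 (SE 0.33, FDR 0.297) was not called. With quantile normalization it was 1.08 (FDR 0.0106), and it was 1.08 (FDR 0.00802) on the deposited log2 values, and each of these called this member alone higher.

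Values against N are a description only, since N chose the members. The difference of T from N ranged from -10.67 to 0.54 over the members (median -0.86), and that of NAT from N from -1.01 to 0.22 (median -0.37). Of the falling members 41 of 41 were lower in NAT than in N, with a median of -0.63, and of the other 59 it was 49, with a median of -0.21. Before scaling, the median log2 signal of the falling members was 17.82 and 17.74 on N1 and N2 and 17.77 and 17.76 on NAT1 and NAT2, so their lower scaled values on NAT came with the higher 75th percentile subtracted there. On the tumor arrays the unscaled medians were 8.91, 15.42, 14.76, and 11.37. Unscaled intensities of the 14 consecutive probes lay between 199323 and 299306 on the N and NAT arrays. The highest intensity of any probe with the maker's identifier was 328077 to 366327 on the N and NAT arrays and 276341 to 299254 on the T arrays.

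NAT1 and NAT2 differed in both directions for the falling members. NAT1 minus NAT2 ranged from -0.83 to 0.40 over them, with a median of 0.04, against medians of 0.32 over the other 59 and -0.02 over all tested probes. The share of signal in the falling members was lower on NAT1 (7.72%) than on NAT2 (10.1%), and 26 of them were among the brightest 100 of NAT1, against 38 on NAT2.

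The choice itself was checked on single N arrays. The 100 brightest probes of N1 alone shared 93 with the members, as did those of N2 alone. Those chosen on N1 had a median of 9.96 on N1 and 10.06 on N2, and those chosen on N2 had 10.21 on N2 and 9.96 on N1. In each case 87 were also among the brightest 100 of the other array. At the threshold, ranks 98 to 100 (ASMM10P037517, ASMM10P018889, and ASMM10P021519) had N means of 9.54, 9.51, and 9.51, and ranks 101 to 103 (ASMM10P030129, ASMM10P053653, and ASMM10P039534) had 9.51, 9.51, and 9.50. The 3 inside had T means of 9.19, 8.91, and 9.44, and the 3 outside had T means of 9.78 or more. N1 and N2 differed by at least 2-fold for 5 members, with a largest gap of 1.84 on the log2 scale.

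Position on the slide and the state of the RNA were set beside these results. In the 1st row of arrays, T1 against NAT1, 40 members were at least 2-fold lower, and in row 2, the other 3 tumors against NAT2, 41 were, all of them falling members, beside 21.3% and 21.9% of all tested probes. The medians of the falling members were -9.38 and -4.53. The falling members were chosen on these same T and NAT arrays, so these counts are no test of position. The arrays also carry mouse control probes for the 5′ and 3′ regions of GAPDH and PGK1. The 5′ minus 3′ log2 signal of GAPDH was -3.07 and -3.58 on N, -2.38 and -2.89 on NAT, and between -0.80 and -0.34 on T, and for PGK1 it was -7.70 and -8.48, -7.13 and -7.56, and between -5.78 and -4.46. It was thus higher on every T array than on every NAT and N array, and its part in the change of the members was not tested.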

How the data were processed

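RNA from 2 normal glands, 2 adjacent glands, and 4 tumors was labeled by random priming and hybridized to 8 one-color arrays, 1 per sample. The authors deposited spot intensities on a linear scale, extracted and background corrected by Agilent Feature Extraction 11.0.1.1, with no scaling between arrays. A second deposited table gives log2 values and holds 99 of the 100 members, and its normalization is not given in the sources used here.

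Control and outlier-flagged spots were left out, log2 intensities were averaged per probe, and each array's 75th percentile was subtracted. The 47175 probes called well above background by the scanner software on 2 or more arrays were fitted with limma 3.58.1 in R 4.3.3 on the 3 groups together, without 15 negative control probes, with Benjamini-Hochberg adjustment over all of them (Python 3.11.15 for tables). The cutoff was 2-fold and an FDR of 0.05. These steps were tested on simulated data in which each probe had the same SD in all groups. That does not cover the falling members, whose median SD was 3.13 among T and 0.065 among NAT. Signal shares are sums of unscaled intensity over members divided by the sum over all non-control probes.

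The members, rules, and tests were chosen with earlier results of these data known. Probes named are the 10 brightest in N, the 5 lowest and 5 highest differences among those called without overlap between T and NAT, the 5 with the largest SD among T, the 5 with the smallest difference, and 3 on each side of rank 100; others are said to have been named after their values were seen. Lists of cell type markers could not be used, since no probe of this kind has a gene name here.

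NAT1 and T1, and NAT2 and T2, come from the same mice by the paper (the labels conflict for NAT2 and T2), and across probes, the deviations of such a pair from its groups' means had correlations of -0.0949 and -0.249. The replicate block was by replicate number, N arrays included. This block, other backgrounds, scalings, filters, cutoffs, and member choices, the methods' t-test, and leaving out each array were the alternatives.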

Additional observations from a re-analysis of the deposited data

Results flagged for a closer look

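Among 36 values reported for the 4 T arrays, 2 had 1 tumor far from the rest by Dixon's gap test at the 95% level, where chance gives about 1 in 20. For ASMM10P034369, T1 lay at a scaled log2 signal of 0.71, against 7.91 to 9.39 on the other tumors, a gap of 0.830 of the range. For ASMM10P037321, T2 lay at 7.65, against 8.41 to 8.55, a gap of 0.850 of the range.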

How the results depend on the processing

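Against 29 members called lower in T than in NAT, normexp, quantile normalization, the median, the deposited table, other filters, only T and NAT arrays, trend and robust shrinkage, a 4-fold change, and no scaling gave 23 to 33. Of all tested probes, 9.38% (no scaling) to 19.3% (well above background on all 8 arrays) were called lower. No such share is given here for a 4-fold change or an FDR of 0.01. The replicate block groups N1 with NAT1 and T1, and N2 with NAT2 and T2, though the N glands came from other mice. It gave 35 as a fixed and 28 as a random term, beside 10.8% and 15.6% of all tested probes. Neither term changed a count by over 1.5 times. An FDR of 0.01 gave 14, the methods' t-test after adjustment 6, leaving out NAT2 and T2 16, and the mean of the 15 RefSeq-named probes 97, where 39.1% of all tested probes were called lower. With each array left out the count was 10 (without NAT2) to 37 (without T3). Without T3, 13.4% of all tested probes were called lower, against 15.9% in the main fit. Against 0 called higher, quantile normalization and the deposited table each gave 1. The median difference of -0.57 moved to -0.054 without scaling, -1.70 with the 15 probes, -4.33 for the brightest 50, and -0.26 for the brightest 200. The members in the brightest 100 of T, 35, were 15 of the brightest 50 and 79 of the brightest 200. The share difference of -10.8 points was -8.42 and -12.4 for these, and -12.3 to -9.37 with an array left out. Over all tested probes, 43.6% of the calls were lower, against 22.1% without scaling and 86.0% with the 15 probes.

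Of 329 combinations of the 15 called named probes and an alternative, 263 kept the call, 66 lost it, and 0 reversed. Of 308 for the 14 not called, 26 gained a call, 12 of them with the 15 probes subtracted. Choosing members on normexp signals gave the same 100. No scaling, the 15 probes, and leaving out NAT2 with T2 were chosen after seeing the data. Causes of these moves were not tested.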
